A study of Mus musculus with 24 samples.

Results

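The 10 mouse genes described here encode CXCL1, CXCL2, CXCL3 and CXCL5, which are chemokines that bind the receptor CXCR2, together with CXCR2 itself, the myeloid receptor TREM1, the calcium-binding proteins S100A8 and S100A9, the granulocyte colony-stimulating factor receptor CSF3R and the gelatinase MMP9. They were named by symbol, as 10 of the 54532 genes counted in each of 24 RNA-seq libraries. The choice was made with results of these data already known, in which Trem1 and Cxcl2 stood out in female sedentary pain against female control. The values of that comparison are therefore given as a description. The comparison of active with sedentary pain in females uses the same sedentary libraries and is treated in the same way.

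The libraries came from the left gastrocnemius, a calf muscle, of wild-type C57/BL6 mice, in 6 groups of 4. Control mice were sedentary and received 2 injections of saline at pH 7.2 into the muscle. Sedentary pain mice received 2 injections of acidic saline at pH 5.0, each of 20 µl and 5 days apart, and the muscle was made to contract electrically for 6 min just before the second injection. Active pain mice ran on wheels for 8 weeks and then went through the same acid and contraction procedure. Each of the 3 conditions was sampled in females and in males, and all samples carry a time of 24 h. Controls had neither acid nor contraction, and no active mice without pain are among the samples, so acid and contraction cannot be told apart, and running was compared only among mice with pain. Ages were not given in the sources used here. The sexes were analysed separately and then set against each other, as the submitters describe for their own work. Nothing in the labels says whether equal replicate numbers share a litter, a day or a batch.

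Neutrophils are short-lived white blood cells that circulate in blood and enter tissue after injury or infection. CXCR2 on their surface binds the ELR-motif CXC chemokines, which macrophages, endothelial cells, fibroblasts, muscle cells and neutrophils themselves can make, and this draws the cells out of the vessels. S100A8 and S100A9 form the heterodimer calprotectin, which makes up a large share of the protein in the neutrophil cytosol. CSF3R carries the growth factor signal that drives the making and survival of neutrophils, TREM1 amplifies the response to microbial and damage signals through the adaptor DAP12 (Tyrobp), and MMP9 is stored in neutrophil granules and also made by many other cells. In whole muscle, more cells of a type and more RNA per cell cannot be told apart.

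Of the 4 ligand genes, 3 carry a shared sequence close to their start. The annotation places Cxcl5 (chromosome 5, 90759360 to 90761624), Cxcl3 (90786103 to 90789600), Cxcl1 (90891241 to 90893115) and Cxcl2 (90903871 to 90905938) on the same strand within 146.6 kb of mouse genome build GRCm38. The RefSeq promoter table of build GRCm38.p6 holds a window for 8 of the 10 genes, and Cxcl5 and Mmp9 have no entry in it. The windows of 300 bases run from 250 bases before to 50 bases after a gene's start. Among runs of the form GGGNNNNNCC, the general shape of sites bound by the transcription factor NF-kappaB, Cxcl1, Cxcl2 and Cxcl3 share the decamer GGGAATTTCC. Searched on both strands, this decamer was in no other of the 8 genes and in 29 of all 32851 windows (0.0883%). The decamer was picked because these ligands share it, after their windows had been read, so that percentage describes how rare it is and tests nothing. The 3 windows also share a longer run of 13 bases after the start, which is not of that form. The heptamer ATAAAAG resembles the box that positions RNA polymerase at many inducible genes. It was found in 4 of the 8 genes, which were these same ligands and S100a8, and in 1779 of all windows (5.42%). The motifs do not overlap each other. The stretches from 110 bases before to 10 bases after each start are printed 5′ to 3′ on the plus strand because these ligands moved together in the libraries, with both motifs in capitals. They lie at chr5:90891135-90891254 for Cxcl1, chr5:90903789-90903908 for Cxcl2 and chr5:90785991-90786110 for Cxcl3.
Cxcl1: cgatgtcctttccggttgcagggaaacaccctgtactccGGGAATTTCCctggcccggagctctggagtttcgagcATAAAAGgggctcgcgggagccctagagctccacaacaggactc
Cxcl2: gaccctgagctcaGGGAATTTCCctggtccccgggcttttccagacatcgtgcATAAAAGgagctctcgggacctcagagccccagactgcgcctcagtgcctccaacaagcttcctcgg
Cxcl3: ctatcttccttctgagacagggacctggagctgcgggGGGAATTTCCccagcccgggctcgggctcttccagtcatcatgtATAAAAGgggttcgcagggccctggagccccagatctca
A match of letters is a description of the window and not a measured binding site. Counted from the start in the RefSeq promoter table, the NF-kappaB motif spans −71 to −62 in Cxcl1, −97 to −88 in Cxcl2 and −73 to −64 in Cxcl3. For Cxcl2 that start lies inside the gene as annotated above, so its motif is nearer to the annotated start than these positions say.

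Values are given as CPM, a gene's reads relative to the size of its library, with library sizes scaled by the trimmed mean of M-values (TMM) over all 24 libraries. Libraries held between 17612139 and 34039699 counts, so that 1 count was worth 0.0303 to 0.0563 CPM. The limit that a count of 0 allows, taken as 3 counts, was 0.0908 to 0.169 CPM and covers counting error only. Fold changes against a group in which every library held 3 counts or fewer are lower bounds, computed from the mean CPM over that limit in the average control library.

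The genes were low in control muscle, apart from Mmp9. In the 8 control libraries of both sexes Cxcl3 and Trem1 had no count at all, Cxcl2 had 1 count in 1 library, and Cxcl5 had at most 2 counts. Csf3r stood between 0.175 and 0.817 CPM in female controls and between 0.175 and 0.503 CPM in male controls, and Mmp9 between 1.75 and 4.51 CPM and between 2.24 and 6.78 CPM. None of the 10 genes differed between male and female controls past the threshold (edgeR quasi-likelihood F test with Benjamini-Hochberg adjustment over all genes, smallest adjusted p = 0.807), where 2.83% of all genes did, 1.54% of all genes being higher in males. None had an unadjusted p under 0.05 either, against 14.9% of all genes. DESeq2 called 2 of the 10, Cxcl2 and Cxcl5, both with 2 counts or fewer in every control library, and 4.77% of all genes. Cxcl3 and Trem1, without a count in any control, could not differ. Cxcl2, Cxcl5 and Cxcr2 had few or no counts there, so the result for the 10 genes is no like comparison with all genes.

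Outside the controls, each of the pain groups held a library that stood apart from the other 3. With sedentary pain it was replicate 2 in females and replicate 1 in males, and with active pain replicate 3 in females and replicate 2 in males. That library was the highest of its group for 9 of the 10 genes in female sedentary pain, where Csf3r was highest in replicate 4, and for 10 of 10 in each of the other 3 groups. The share of the group's summed CPM that came from the highest library had a median over the genes of 78.6% in females and 98.9% in males with sedentary pain, and of 72.6% and 87.6% with active pain. The main values that rest on these libraries are therefore also given without them.

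**Figure D1:**
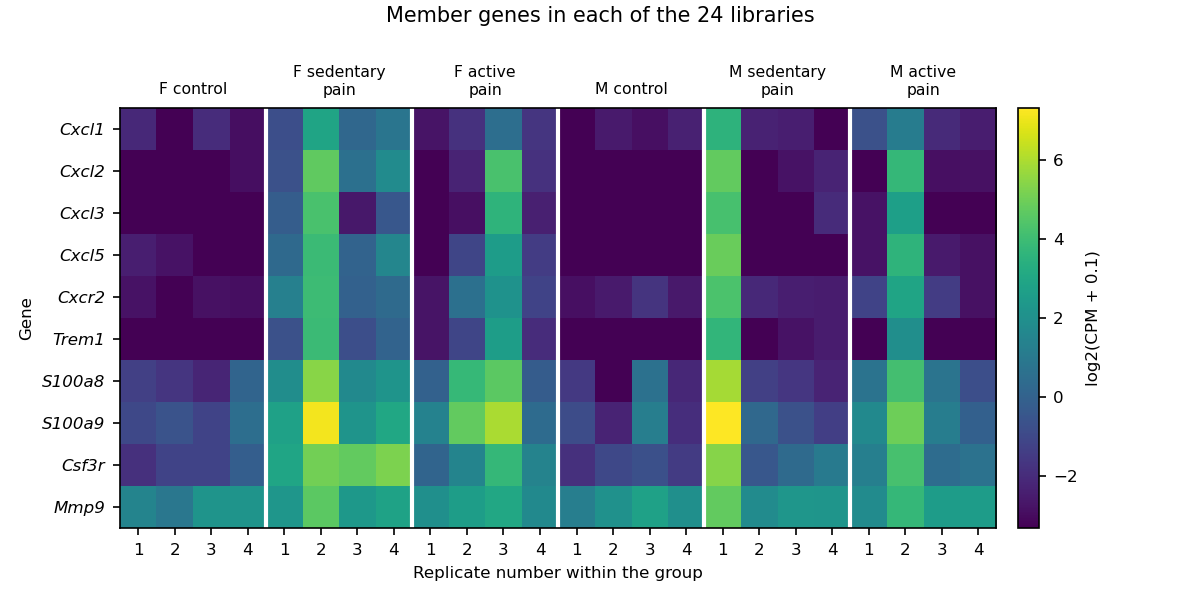
Level of the 10 genes (rows) in each of the 24 libraries (columns, grouped by sex and condition), as log2(CPM + 0.1). F and M stand for female and male. A bright column marks replicate 2 of female sedentary pain, replicate 3 of female active pain, replicate 1 of male sedentary pain and replicate 2 of male active pain, and Csf3r is also bright in replicates 3 and 4 of female sedentary pain.

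Cxcl1, a ligand that many stromal cells release within hours of a stimulus, stood at 0.489, 7.26, 1.07 and 1.68 CPM in replicates 1 to 4 of female sedentary pain, and at 0.131, 0, 0.154 and 0.0303 CPM in female controls. All 4 sedentary pain libraries lay above all 4 controls, with a log2 fold change of 5.01, or 3.80 without replicate 2. Male sedentary pain gave 11.7, 0.102, 0.0872 and 0 CPM of Cxcl1, against at most 0.0968 CPM in male controls, so that replicate 1 was high and the remaining libraries spanned the control range. Active pain gave 0.0466, 0.183, 1.33 and 0.214 CPM in females and 0.522, 2.15, 0.138 and 0.0827 CPM in males.

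Cxcl2, a ligand that macrophages and neutrophils make in quantity, stood at 0.527, 26.6, 1.44 and 3.40 CPM in replicates 1 to 4 of female sedentary pain. The female controls held 0, 0, 0 and 0.0303 CPM, and the mean in sedentary pain was at least 70.3-fold higher. All 4 libraries were above the controls, but replicate 2 held 83.2% of the group's sum, and the mean of the other 3 was at least 15.7-fold higher. The male sedentary pain values of Cxcl2 were 27.3, 0, 0.0436 and 0.112 CPM, with every male control at 0, and the mean was at least 67.4-fold higher. That bound rests on replicate 1, since the other 3 male libraries held 3 counts or fewer. Female active pain gave 0, 0.110, 19.4 and 0.183 CPM, and male active pain gave 0, 13.5, 0.0345 and 0.0413 CPM. Here too 1 library in each sex held nearly all of the reads.

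Cxcl3, a close relative of Cxcl2, stood at 0.791, 19.0, 0.0613 and 0.640 CPM in female sedentary pain and at 18.5, 0, 0 and 0.149 CPM in male sedentary pain. The active pain libraries held 0, 0.0366, 12.2 and 0.0917 CPM in females and 0.0435, 6.42, 0 and 0 CPM in males. The same library as for Cxcl2 was high in each group. The annotated transcripts of Cxcl2 and Cxcl3 share an identical run of 157 bases, longer than the reads of 100 bases, whereas no other pair of the 10 genes shares more than 23 bases. How reads from that run were assigned is not given in the sources used here, so the split between Cxcl2 and Cxcl3 is uncertain.

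Cxcl5, a ligand made largely by epithelial and other tissue cells, stood at 1.13, 15.4, 0.950 and 2.86 CPM in female sedentary pain and at 0.0875, 0.0426, 0 and 0 CPM in female controls. Its mean was at least 44.6-fold higher, and at least 14.5-fold higher without replicate 2. In males Cxcl5 had 29.6 CPM in sedentary pain replicate 1 and no count in the other 3 sedentary pain libraries or in any control. Female active pain gave 0, 0.366, 5.87 and 0.275 CPM, and male active pain gave 0.0435, 11.95, 0.0689 and 0.0413 CPM. Each male active pain library had at least 1 count of Cxcl5 and each male control had none, although 3 of the 4 lay below the 3-count limit.

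Per kilobase of exon, the ligands made up different shares of their sum in the 4 high libraries. With sedentary pain Cxcl2 gave 42.3% in the female and 32.5% in the male library, and with active pain 56.1% and 41.0%. Cxcl5 gave 27.1%, 39.1%, 18.8% and 40.3% in the same order. Cxcl1 gave 12.7%, 15.3%, 4.25% and 7.20%, and Cxcl3 gave 17.8%, 13.0%, 20.8% and 11.5%. In these libraries the ligands had between 854 and 2208 counts, and each share comes from 1 library. Because the split of reads between Cxcl2 and Cxcl3 is uncertain, no order of the ligands is read from these shares.

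Cxcr2, the receptor for these ligands on mouse neutrophils, stood at 2.41, 15.8, 0.889 and 1.18 CPM in female sedentary pain, against at most 0.0438 CPM in female controls. Its mean was at least 44.4-fold higher, and at least 13.1-fold higher without replicate 2. Replicates 1, 3 and 4 also lay above every control. Cxcr2 in male sedentary pain stood at 19.6, 0.137, 0.0872 and 0.0743 CPM, and male controls ranged from 0.0350 to 0.201 CPM. Only replicate 1 lay above the male controls. Active pain gave 0.0466, 1.43, 4.27 and 0.336 CPM in females and 0.348, 7.45, 0.276 and 0.0413 CPM in males. All 4 female active pain libraries lay above the female controls, although replicate 1 held 1 count, as did 3 of the controls.

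Csf3r spread differently from the rest. It stood at 7.60, 33.6, 26.9 and 36.9 CPM in female sedentary pain and at 0.175, 0.341, 0.346 and 0.817 CPM in female controls. Replicates 2, 3 and 4 were of like height, while each of the other 9 genes was lower in replicates 3 and 4 than in replicate 2. The fitted log2 fold change was 5.93 ± 0.90 (SE, n = 4 against 4) and was 5.82 without replicate 2. Csf3r in male sedentary pain stood at 41.8, 0.649, 1.18 and 2.01 CPM, against 0.175, 0.389, 0.503 and 0.258 CPM in male controls. Every sedentary pain library lay above every control, by little in replicate 2 and by far in replicate 1. Active pain gave 0.979, 2.67, 13.6 and 2.63 CPM in females and 2.30, 18.7, 1.241 and 1.53 CPM in males, again above all controls of the same sex. Csf3r was the only one of the 10 genes whose pain libraries did not overlap the controls in all 4 comparisons with controls.

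**Figure D2:**
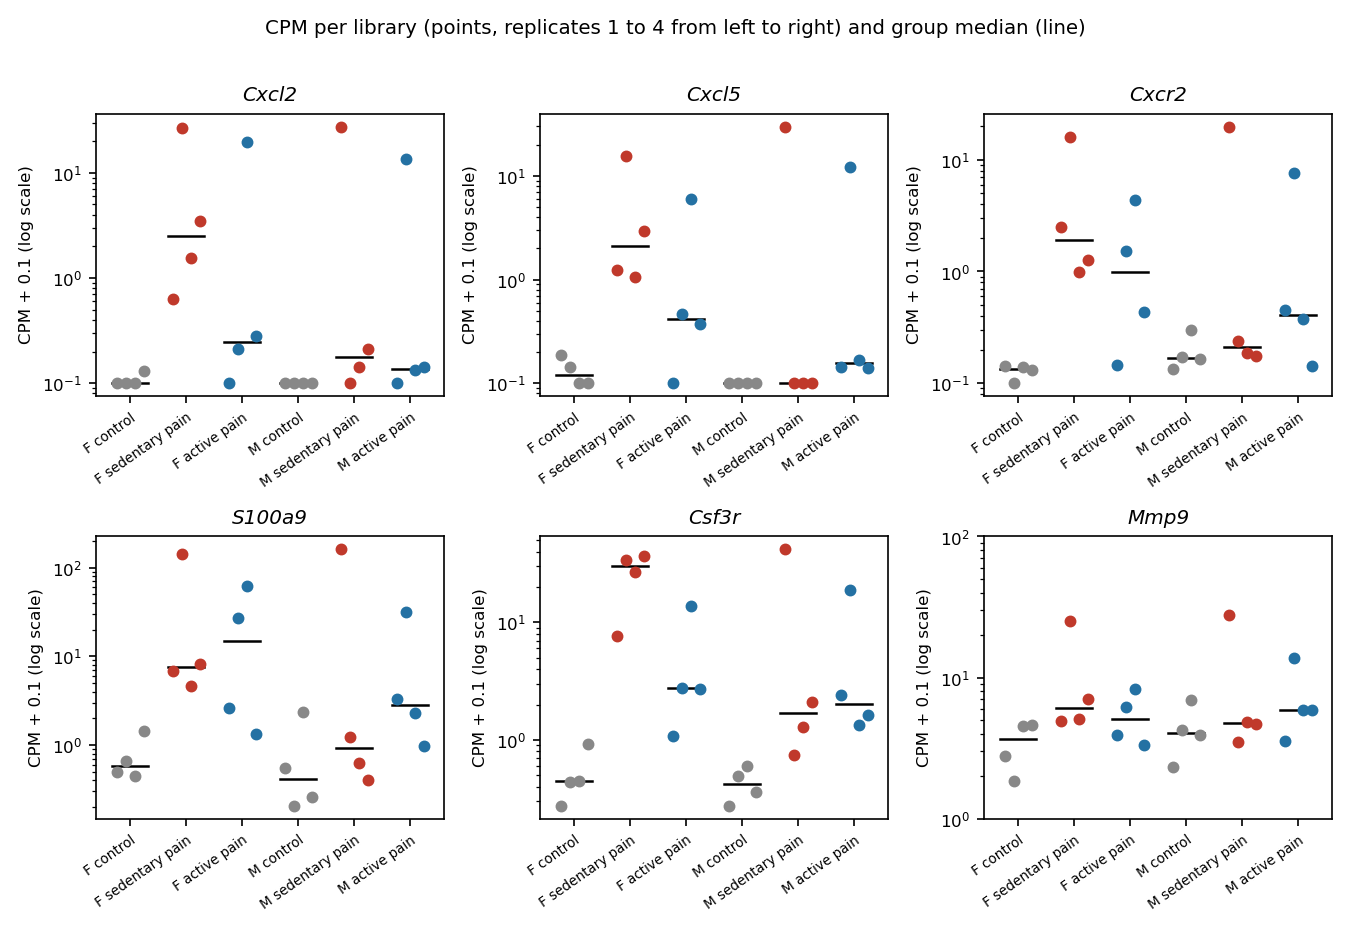
CPM + 0.1 (log scale) of Cxcl2, Cxcl5, Cxcr2, S100a9, Csf3r and Mmp9 by group, with replicates 1 to 4 from left to right as points and the group median as a line. In the Csf3r panel 3 of the 4 female sedentary pain libraries lie between 26.9 and 36.9 CPM, whereas in the other panels replicate 2 of that group lies apart.

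Trem1, which acts on neutrophils and monocytes, had no count in any control. It stood at 0.527, 15.4, 0.490 and 0.943 CPM in female sedentary pain, a mean at least 38.1-fold higher than controls, and at 12.8, 0, 0.0436 and 0.0743 CPM in male sedentary pain. Replicate 2 held 88.7% of the female sum, and without it the bound was 5.74-fold and the adjusted p of edgeR's quasi-likelihood F test 0.0857. Female active pain gave 0.0466, 0.366, 5.91 and 0.153 CPM, and male active pain 3.71 CPM in replicate 2 and 0 in the other 3 libraries. Trem1 thus had at least 1 count in all 8 pain libraries of females and in 4 of the 8 of males, but female active pain replicate 1 and male sedentary pain replicates 3 and 4 held 1 or 2 counts, under the 3-count limit. An annotated processed pseudogene lies antisense to Trem1 and had 0 CPM in the libraries.

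S100a8 and S100a9 lie 22.6 kb apart on chromosome 3, S100a8 at 90668978 to 90670035 and S100a9 at 90692632 to 90695721 on the opposite strand. S100a9 stood at 6.78, 140.5, 4.50 and 8.08 CPM in female sedentary pain and at 0.394, 0.554, 0.346 and 1.33 CPM in female controls. All 4 sedentary pain libraries were above the controls, with replicate 2 far above the rest. The fitted log2 fold change was 5.89, and without replicate 2 it was 3.29, with an adjusted p of 0.0557 (edgeR quasi-likelihood F test). S100a9 in male sedentary pain stood at 160.6, 1.13, 0.523 and 0.297 CPM, and male controls held 0.455, 0.106, 2.25 and 0.161 CPM. Outside replicate 1, no male sedentary pain library exceeded male control replicate 3. Female active pain gave 2.52, 26.8, 62.2 and 1.22 CPM, and male active pain gave 3.22, 31.7, 2.21 and 0.868 CPM. Both groups overlapped their controls.

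S100a8 followed S100a9. In females it stood at 3.58, 43.5, 3.22 and 4.51 CPM with sedentary pain and at 0.885, 13.9, 25.0 and 0.764 CPM with active pain. Its log2 fold change with sedentary pain went from 5.03 to 3.20 without replicate 2, with an adjusted p of 0.0619 (edgeR quasi-likelihood F test). The males had 59.7, 0.307, 0.218 and 0.112 CPM with sedentary pain and 1.56, 17.5, 1.62 and 0.496 CPM with active pain. Female active pain replicate 2 was high for both S100 genes although its ligands were low, with a ligand sum of 0.695 CPM against 38.8 CPM in replicate 3. Over the 13 libraries with at least 20 counts of S100a8, the ratio of S100a9 to S100a8 per kilobase ran from 1.81 to 4.29 with a median of 2.41. The highest ratio came from female sedentary pain replicate 2.

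Mmp9 was the only one of the 10 genes above 1 CPM in every control library. It stood at 4.78, 25.1, 4.96 and 6.97 CPM in female sedentary pain against 2.67, 1.75, 4.42 and 4.51 CPM in female controls. The groups did not overlap, and replicate 1 of sedentary pain lay just above the highest control. The fitted log2 fold change of 1.65 ± 0.56 (SE, n = 4 against 4) was 0.78 without replicate 2, with an adjusted p of 0.148 (edgeR quasi-likelihood F test). The call was also lost without sedentary pain replicate 4 (adjusted p = 0.0573) or without any 1 of the controls (0.0506 to 0.102). Mmp9 in male sedentary pain stood at 27.5, 3.38, 4.75 and 4.61 CPM and in male active pain at 3.43, 13.7, 5.82 and 5.83 CPM, both overlapping the male controls. Female active pain gave 3.82, 6.08, 8.20 and 3.21 CPM.

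In female sedentary pain against female control, all 10 genes passed the filter on low counts and 9 were called higher at an adjusted p under 0.05. Of the 10, 6 had under 10 counts in every female control and so passed the filter through the pain libraries, where they were high. S100a8, S100a9 and Csf3r had some female controls under 10 counts and also needed pain libraries to pass. This sets the counts of calls apart from those over all genes. The share of all genes called in either direction was 33.5%, and 19.6% were called higher. The exception was Cxcl3, at an adjusted p of 0.0709. The unadjusted p was under 0.05 for all 10, against 47.6% of all genes. In all 10 genes every sedentary pain library exceeded every control, as it did in 13.9% of all genes tested. Without replicate 2, 4 genes were called, namely Cxcl1, Cxcl5, Cxcr2 and Csf3r, where 16.7% of all genes were called higher. Since the genes were chosen with this comparison known, nothing further is read from these counts.

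In male sedentary pain against male control 4 of the genes passed the filter, namely S100a8, S100a9, Csf3r and Mmp9, and none was called. Across all genes 0% were called by edgeR, and 1.9% (270 genes) by DESeq2, none of them among the 4. Csf3r had a log2 fold change of 5.14 ± 1.56 (SE, n = 4 against 4) with an adjusted p of 0.323 by edgeR's quasi-likelihood F test. The unadjusted p was under 0.05 for 3 of the 4 genes, against 8.84% of all genes. These were S100a8, S100a9 and Csf3r, which had some male controls under 10 counts. They needed pain libraries to pass the filter, so this is no like comparison. Csf3r was higher in every sedentary pain library than in every control, as held for 4.48% of all genes. Without male sedentary pain replicate 1 the log2 fold change of Csf3r was 1.93, that of S100a9 went from 5.81 to −0.19, that of S100a8 from 5.06 to −1.12 and that of Mmp9 from 1.28 to −0.01. The other 6 genes did not pass the filter and were not tested in males.

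In female active pain against female control all 10 genes passed the filter and none was called by edgeR, as for all genes (0%). DESeq2 called 5 of them, namely Cxcl2, Cxcr2, S100a8, S100a9 and Csf3r, and 0.862% of all genes (125 genes). The unadjusted p was under 0.05 for 8 of the 10 genes and for 7.03% of all genes. All of the 10 but Mmp9 needed pain libraries to pass the filter, so this is no like comparison. Csf3r had a log2 fold change of 3.50 ± 0.84 (SE, n = 4 against 4) and an adjusted p of 0.565 by edgeR's quasi-likelihood F test, and 2.23 without replicate 3. Without that library the log2 fold change went from 4.58 to 3.57 for S100a8 and from 5.08 to 3.85 for S100a9. Cxcr2, Trem1 and Csf3r were higher in every active pain library than in every control, as held for 3.92% of all genes. These values share their controls with the sedentary pain comparison.

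In male active pain against male control 4 genes passed the filter and none was called by edgeR or DESeq2 (0% of all genes by edgeR, 0.892% or 127 genes by DESeq2). Csf3r had a log2 fold change of 4.15 ± 1.52 (SE, n = 4 against 4), an adjusted p of 0.574 by edgeR's quasi-likelihood F test, and a log2 fold change of 2.33 without replicate 2. Without that library S100a8 went from 3.49 to 1.39 and S100a9 from 3.66 to 1.48. Csf3r was the only gene of the 4 with an unadjusted p under 0.05, against 7.25% of all genes. It needed pain libraries to pass the filter, so this is no like comparison. Csf3r was higher in every active pain library than in every control, as held for 7.31% of all genes tested. The same held for Cxcl5, but it was not tested, and 3 of its 4 active pain libraries held 1 or 2 counts against 0 in controls.

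**Figure D3:**
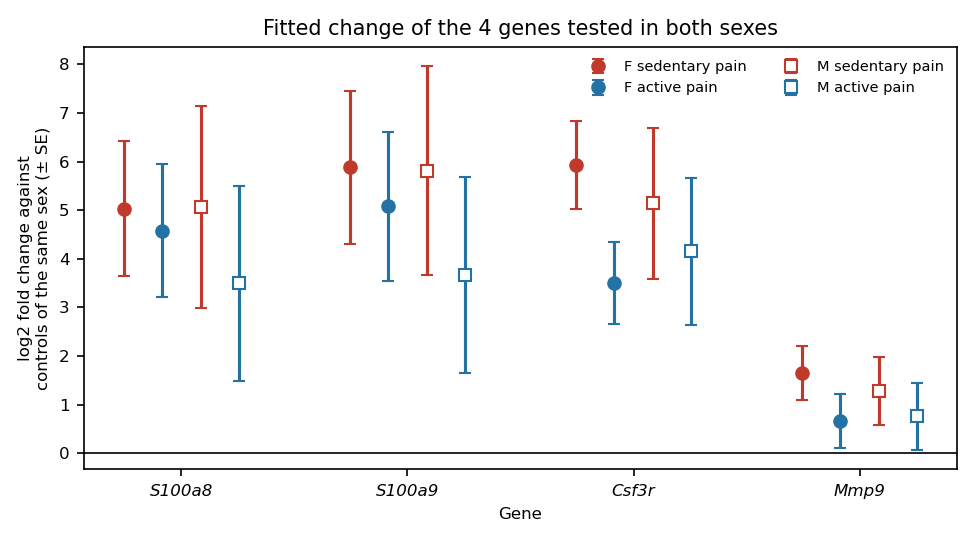
Fitted log2 fold change (points) and standard error (bars) of the 4 genes that passed the filter in both sexes, each pain group against controls of its own sex (n = 4 per group). Filled circles are females and open squares males. S100a8, S100a9 and Csf3r lie between 3.49 and 5.93 with standard errors of 0.84 to 2.15, and Mmp9 lies between 0.67 and 1.65. These values rest in part on 1 library per pain group, without which they lay between −1.12 and 5.82 and, for Mmp9, between −0.01 and 0.78.

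Active pain was also set against sedentary pain within each sex. In females none of the 10 genes was called by edgeR, where 11.9% of all genes were, and 2 had an unadjusted p under 0.05, against 32.2% of all genes. Csf3r was closest, with a log2 fold change of −2.43 ± 0.73 (SE, n = 4 against 4) and an adjusted p of 0.0504 by edgeR's quasi-likelihood F test. DESeq2 called 2 of the 10, Csf3r and Cxcl1, and 20.8% of all genes. Csf3r lay at the threshold and was also called by edgeR with RLE scaling (adjusted p = 0.0489), without the robust step (0.0493), with a mean of at least 50 counts (0.0494) and without sedentary pain replicate 1 (0.0135), where 29% of all genes were called. Without active pain replicate 3, Cxcl1, Cxcl2, Cxcl5 and Csf3r were called lower, with a log2 fold change of −6.23 for Cxcl2, where 8.86% of all genes were called lower. The calls over all genes fell from 1730 to between 0 and 3 without any 1 of active pain replicates 1, 2 and 4 and sedentary pain replicates 3 and 4. Without sedentary pain replicate 2 none of the 10 was called, where 11.9% of all genes were, and 5 of them (Cxcl2, Cxcl3, Trem1, S100a8 and S100a9) turned to higher in active pain, none past the threshold. In males none of the 4 genes tested was called by edgeR or DESeq2 and none had an unadjusted p under 0.05, against 0% and 0.840% of all genes. No gene of the 4 was higher in every active pain library, against 0.465% of all genes. Csf3r had −0.99 ± 1.243 with all libraries and 2.22 without sedentary pain replicate 1.

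Whether the change differed between the sexes was tested in all 24 libraries together. None of the 10 genes differed in the change with sedentary pain (smallest adjusted p = 0.867), with active pain (0.99999) or in active against sedentary pain (0.628), by edgeR's quasi-likelihood F test. No gene among all those tested was called in any of these 3 tests (0%). None of the 10 had an unadjusted p under 0.05 in any of them, against 9.57%, 2.03% and 14.7% of all genes. Cxcl3 and Trem1 had no count in any control, and Cxcl2 and Cxcl5 had none in male controls. In the tests against control their difference between the sexes was therefore not defined, and the result for the 10 is no like comparison. The difference for Csf3r, male minus female, was −0.83 ± 1.79 (SE) on the log2 scale with sedentary pain and 0.66 ± 1.77 with active pain. Standard errors of this size leave room for differences of several log2 units in either direction. DESeq2 called Cxcl5 in the tests of sedentary and of active pain against control, a gene with no count in male controls. It called 15 (0.0994%) and 3 (0.0199%) of all genes there. Without male sedentary pain replicate 1, edgeR called Cxcl1, Cxcr2 and Csf3r in the test of active against sedentary pain, and 14.1% of all genes were then called.

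By the median of the summed CPM of the 10 genes, the groups ran from female sedentary pain (55.8, range 28.6 to 342.0) over female active pain (30.5, 8.34 to 158.0), male active pain (11.4, 8.93 to 126.7) and male sedentary pain (7.18, 5.70 to 409.1) to male control (4.65, 3.15 to 11.2) and female control (4.62, 2.90 to 7.72). Each pair of neighbours in this order overlapped in range. The group with the highest library, male sedentary pain, had the lowest median of the 4 pain groups. The genes entered the sum unevenly. Mmp9 had a median of 3.55 CPM in female and 3.97 CPM in male controls. S100a9 held 140.5 and 160.6 CPM in the highest female and male sedentary pain libraries.

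Genes that act before or after these ones were taken from lists written for this purpose. Il1b, a cytokine that induces the ligands, stood at 3.24, 57.9, 14.2 and 31.1 CPM in female sedentary pain and at most 0.212 CPM in female controls, with 51.6 CPM in male sedentary pain replicate 1 and at most 0.520 CPM in the other 3 of that group. Csf3, the growth factor bound by CSF3R, reached 27 counts in female sedentary pain replicate 2 and 42 counts in male sedentary pain replicate 1, and had 6 counts or fewer in every other library. Of the 12 inducers and growth factors 6 passed the filter in females and 5 of these were called higher in sedentary pain, with a median log2 fold change of 2.95 (5 of 6 and 3.20 without replicate 2), where 19.6% of all genes were called higher. Of these 6, at least 2 passed the filter through the pain libraries. Csf2rb, the beta chain shared by the receptors of GM-CSF and interleukin 5, stood at 4.74, 10.8, 36.6 and 32.8 CPM in female sedentary pain and at 0.980 to 4.33 CPM in controls. The median over all genes tested was −0.02 in the same comparison. In active against sedentary pain 2 of the 6 were called lower in females, where 9.41% of all genes were (5 without active pain replicate 3, 3 without sedentary pain replicate 2, and 0 without any 1 of active pain replicates 1, 2 and 4 and sedentary pain replicates 3 and 4), among them Il17ra, a receptor subunit for interleukin 17, with a log2 fold change of −1.99 ± 0.50 and an adjusted p of 0.0333 by edgeR's quasi-likelihood F test.

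Among other genes of the CXC chemokine axis, 4 of the 6 tested were called higher in female sedentary pain, with a median log2 fold change of 1.76, against 19.6% of all genes. The count was 2 of the 6 without replicate 2 or without any 1 of the controls. At least 1 of the 6 passed the filter through the pain libraries. Pf4, a platelet and macrophage chemokine, stood at 18.4, 57.7, 14.6 and 23.2 CPM there and at 3.37 to 8.92 CPM in controls. Cxcl12, which binds CXCR4, ranged from 47.0 to 87.5 CPM in female sedentary pain and from 50.7 to 75.9 CPM in female controls, with a log2 fold change of 0.19 ± 0.19 that did not pass the test. Its scavenging receptor gene Ackr3 did not pass either, at −0.08 ± 0.13.

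Among 9 partners of TREM1, the S100 proteins and the gelatinases, 8 were tested in females, 6 were called higher in sedentary pain (6 without replicate 2) and 3 lower in active against sedentary pain (4 without active pain replicate 3), against 19.6% and 9.41% of all genes. The calls in active against sedentary pain, here and in each list that follows, also fell to 0 without any 1 of the same 5 libraries, which were active pain replicates 1, 2 and 4 and sedentary pain replicates 3 and 4. Tyrobp, the DAP12 adaptor, stood at 17.8, 62.6, 130.5 and 215.5 CPM in female sedentary pain and at 2.51 to 6.69 CPM in female controls, so that unlike Trem1 it was highest in replicates 3 and 4. Timp1, an inhibitor of MMP9, stood at 18.6, 79.2, 28.9 and 106.4 CPM against at most 1.28 CPM in controls. Timp2 and Mmp2, an inhibitor and a gelatinase of connective tissue, had log2 fold changes of 0.10 ± 0.18 and 0.34 ± 0.17 and did not pass the test.

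The neutrophil label was checked against genes outside the 10. The 20 other genes of mature neutrophils summed to 4.64 to 11.4 CPM in female controls, to 59.6, 351.8, 467.2 and 683.8 CPM in female sedentary pain and to 12.2, 29.5, 199.4 and 28.6 CPM in female active pain. Of the 20, 17 passed the filter in females and 17 were called higher in sedentary pain, where 19.6% of all genes were. Without replicate 2 it was 13, where 16.7% of all genes were called higher. Of these 17, 7 had under 10 counts in every female control and so passed the filter through the pain libraries, where they were high. The count is a description, and the 12 macrophage and monocyte markers were all called higher as well. In active against sedentary pain 6 of the 17 were called lower (11 without active pain replicate 3, 5 without sedentary pain replicate 2). Of all genes 9.41% were called lower there (8.86% and 10.1% without these libraries, in the same order). The 20 genes were highest in the same library as the 10 in males, in 20 of 20 genes in sedentary pain replicate 1 and 20 of 20 in active pain replicate 2, and in 18 of 20 in female active pain replicate 3. In female sedentary pain only 10 of the 20 were highest in replicate 2, with 9 in replicate 4 and 1 in replicate 3. Acod1, an enzyme gene of activated neutrophils and macrophages, stood at 2.07, 28.4, 107.9 and 134.1 CPM there. C5ar1, the receptor for the complement fragment C5a, stood at 11.3, 52.0, 41.9 and 69.3 CPM, against at most 2.94 CPM in female controls. Itgam, the integrin chain CD11b shared by neutrophils and macrophages, stood at 10.9, 27.7, 42.4 and 67.4 CPM. Ly6g, a defining surface marker of mouse neutrophils, had at most 11 counts in any library.

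Genes of the granules that neutrophil precursors fill in the marrow had another order. Of 9 such genes 5 passed the filter in females, and 1 was called higher in sedentary pain, Chil3, with a log2 fold change of 5.28 ± 1.14, or 4.06 without replicate 2. That is 1 of 5 genes, near the 19.6% of all genes, and at least 2 of the 5 passed the filter through the pain libraries. Their summed CPM was highest in female active pain replicate 2 at 39.1 CPM, ahead of female sedentary pain replicate 2 at 28.6 CPM and male sedentary pain replicate 1 at 14.4 CPM. Ngp, a granule protein gene of immature neutrophils, held 0.606, 15.2, 1.30 and 0.153 CPM in female active pain, whereas male sedentary pain replicate 1 had 0.118 CPM. Elane and Mpo, primary granule enzymes made at the promyelocyte stage, reached 10 and 21 counts in female active pain replicate 2 and had at most 4 and 6 counts in any other library. Female active pain replicate 2 was thus high for granule and S100 genes at a ligand sum of 0.695 CPM.

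**Figure D4:**
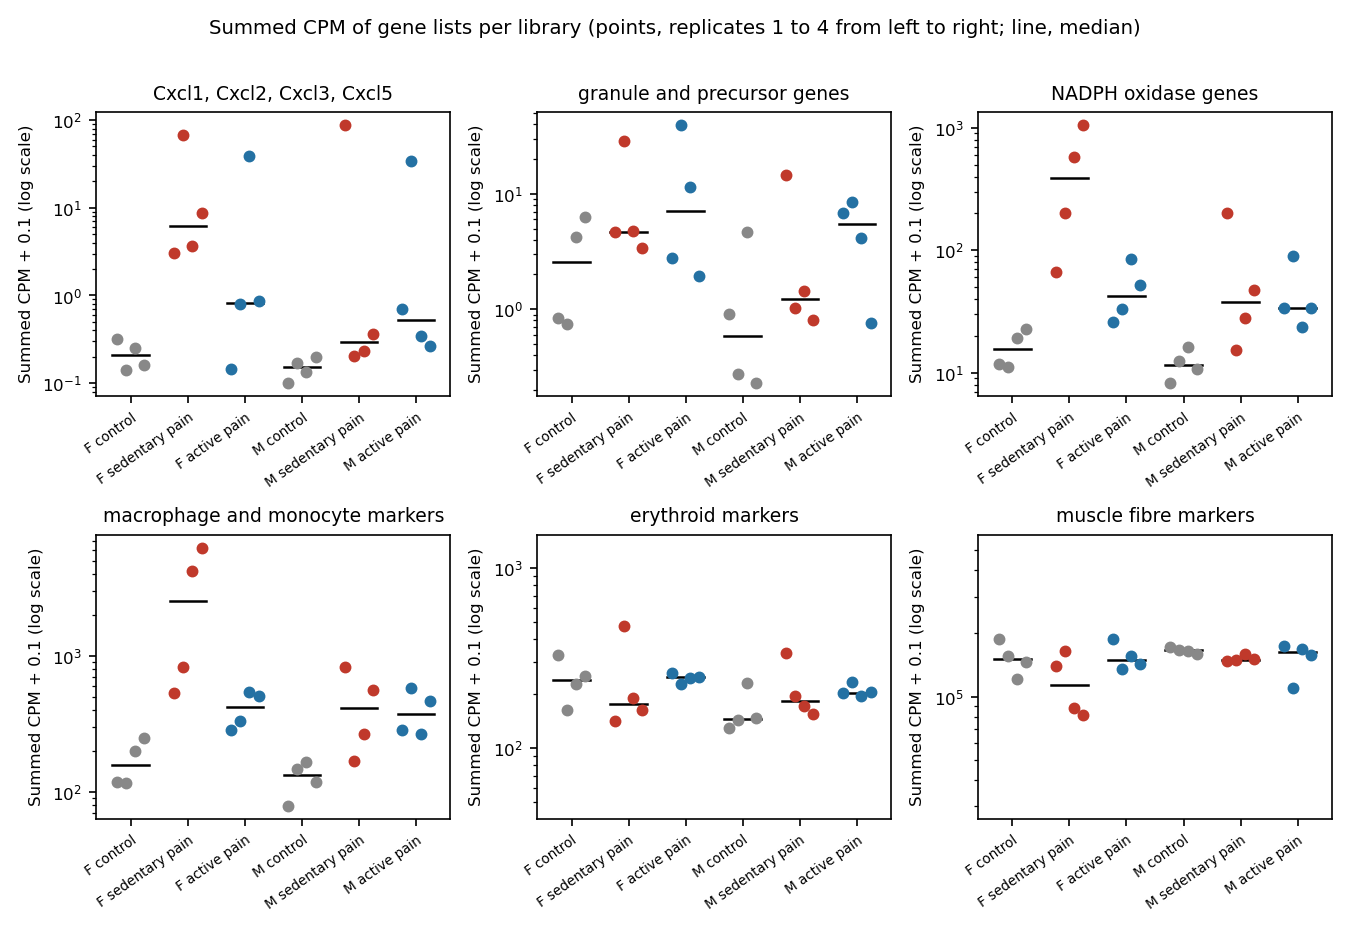
Summed CPM + 0.1 (log scale) per library of the 4 ligand genes and of 5 gene lists, with replicates 1 to 4 from left to right as points and the group median as a line. In female sedentary pain the ligand sum peaks in replicate 2 at 68.3 CPM, whereas the NADPH oxidase and macrophage sums peak in replicate 4.

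Markers of other cells were read in the same libraries. The 12 macrophage and monocyte markers were all called higher in female sedentary pain, with and without replicate 2, and 10 of 12 lower in active against sedentary pain (8 without active pain replicate 3, 11 without sedentary pain replicate 2). Of all genes 19.6% were called higher in the former comparison (16.7% without replicate 2). In the latter 9.41% were called lower (8.86% without active pain replicate 3, 10.1% without sedentary pain replicate 2). The summed CPM of the macrophage and monocyte markers in female sedentary pain was 531.8, 823.9, 4206 and 6206 in replicates 1 to 4, against 115.2 to 246.5 in female controls. The ligand sum was 2.94, 68.3, 3.52 and 8.59 CPM. The ligands were thus highest in 1 library and the macrophage markers in the other two of the 3 with high Csf3r. Lyz2, a lysozyme gene of macrophages and neutrophils, held 211.8 to 2652 CPM in this group. NADPH oxidase genes, which neutrophils and macrophages both use to make reactive oxygen, had 6 of 6 called higher in female sedentary pain (median 4.83) and 6 of 6 called lower in active against sedentary pain (median −3.15), in both cases also without the library that stood apart. These counts stand beside the same shares of all genes. Cyba and Cybb, the chains of the membrane-bound part of the enzyme, rose from at most 8.00 and 5.02 CPM in female controls to 17.8, 76.5, 124 and 341.4 CPM and to 12.2, 16.9, 238.0 and 337.1 CPM in sedentary pain. Rac2, a small GTPase that activates it, stood at 13.1, 41.2, 93.1 and 176.7 CPM, against at most 3.81 CPM in controls. T and NK cell markers reached 42.7 and 79.0 CPM summed in replicates 3 and 4 and stayed at or under 3.66 CPM in the other 22 libraries. In males no gene of any list was called, and the macrophage sum was 819.7, 166.5, 264.5 and 560.2 CPM in sedentary pain, highest in the library with high ligands. The part of macrophages in the levels of the 10 genes was not tested.

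Blood and muscle markers were read for the same reason. Summed erythroid markers stood at 474.7 CPM in female sedentary pain replicate 2 and 141.1 to 189.6 CPM in the other 3 of the group, and at 335.1 CPM in male sedentary pain replicate 1 and 155.0 to 193.6 CPM in the other 3. In female and male active pain replicates 3 and 2 the erythroid sum lay at 245.1 and 233.3 CPM, among values of 225.3 to 262.1 CPM and 194.4 to 233.3 CPM in these groups. Summed muscle fibre markers stood at 110393 CPM in male active pain replicate 2 against 157592 to 173826 CPM in the rest of that group, and at 88338 and 81781 CPM in female sedentary pain replicates 3 and 4 against 139817 and 164578 CPM in replicates 1 and 2. None of the 5 erythroid and 6 muscle fibre markers was called in any comparison with all libraries, and 1 erythroid marker was called lower in female sedentary pain without replicate 2. In the same comparison 2 of 4 endothelial and 3 of 4 adipocyte markers were called lower, against 13.9% of all genes. Without replicate 2 these were 1 of 4 each, against 7.79% of all genes, and without replicate 4 there were 0. The mitochondrially encoded share of counts was 3.85% in female sedentary pain replicate 2, 4.53% in male sedentary pain replicate 1, 6.87% in female active pain replicate 3 and 5.97% in male active pain replicate 2, against 8.59% to 11.2% in controls. It was also below the controls in libraries outside these 4, at 2.75% and 5.86% in female sedentary pain replicates 4 and 3 (ligand sums of 8.59 and 3.52 CPM) and at 6.67% in female active pain replicate 1 (0.0466 CPM). Female sedentary pain replicate 1 at 8.22% and male active pain replicate 1 at 8.14% lay just below the controls too. The part of blood and of RNA composition in these levels was not tested.

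The genes most alike to the 10 over the 24 libraries were found by Pearson's correlation of log2 CPM with the mean of the 10 genes, among 12572 genes. They were Ccr1 (r = 0.972), Pdpn (0.967), Osm (0.967), Trim30b (0.965), Il1rn (0.961), Slpi (0.960), Plaur (0.958) and Rab44 (0.956). The 24 points share their groups and the 4 high libraries, and the coefficients are descriptions. Il1rn, which encodes the interleukin 1 receptor antagonist, stood at 63.4 and 59.4 CPM in the high female and male libraries with sedentary pain and at 46.6 and 20.96 CPM in those with active pain, and at most 0.151 CPM in any control. Pdpn, a membrane glycoprotein of fibroblasts and lymphatic vessels, stood at 83.3, 98.6, 19.8 and 35.4 CPM in these libraries, in the same order, and at 2.41 to 4.31 CPM in controls. Osm, a cytokine made by neutrophils and macrophages, stood at 15.1, 7.77, 3.89 and 1.51 CPM and at most 0.0605 CPM in controls. Slpi, an inhibitor of neutrophil elastase, stood at 21.9, 27.3, 13.2 and 9.005 CPM and at most 0.134 CPM in controls. Ccr1, a chemokine receptor of myeloid cells, stood at 23.5, 23.3, 11.6 and 13.1 CPM and at most 0.817 CPM in controls.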

How the data were processed

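Each deposited file gives the authors' whole-number count for every Ensembl gene in 1 library, and the values show no normalization or filter. Per the labels' protocols, 0.5 µg of total RNA went into stranded TruSeq libraries that were read as paired ends of 100 bases. The submitters' processing notes name HISAT2 2.1.0, Salmon 0.9.1, featureCounts and DESeq2 1.24.0, and builds mm10 and GRCm38.p6, without their role. The annotation release and use of strand are not given in the sources used here.

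Counts were analysed with edgeR 4.0.16 in R 4.3.3: TMM scaling, filterByExpr by group with a minimum count of 10, and robust quasi-likelihood F tests, two-sided, adjusted by Benjamini-Hochberg over all genes at 0.05. Each sex was fitted with its 12 libraries. Sex differences and male against female control used all 24. The standard error is the one that corresponds to F. DESeq2 1.42.0 was an alternative, beside other scaling, filters, left-out libraries and replicate terms. The code was tested on simulated counts.

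The genes and lists were chosen with earlier results of these data known. From each pathway list the 3 genes with the highest mean CPM were named, from each list of cell type markers up to 2, and 7 genes in any case. Others named beyond that rule, such as Lcn2 or Cxcl15, were chosen after their values were seen. The nearest genes by Pearson's r were the 8 highest with a mean of at least 1 CPM. Gene positions come from GENCODE M21. Nothing in the labels says that replicates of a group came from separate animals, so p-values measure the spread between these samples.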

Additional observations from a re-analysis of the deposited data

Results flagged for a closer look

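In 35 of the 60 combinations of gene and group (58.3%), the highest library lay so far from the other 3 that the share of the whole range taken up by this gap passed Dixon's critical value for 4 values. Chance marks about 1 in 20 groups where values are normally distributed, which levels near 0 are not: a lone count beside 3 libraries at 0 always passes. Cxcl3 and Trem1 in both control groups and Cxcl2 and Cxcl5 in male controls are among the 60 but had no count, so they could not be marked. The genes are also not independent of each other. The levels that follow are CPM.

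In male sedentary pain this held for all 10 genes in replicate 1, with Cxcl1 at 11.7, Cxcl2 at 27.3, Cxcl3 at 18.5, Cxcl5 at 29.6, Cxcr2 at 19.6, Trem1 at 12.8, S100a8 at 59.7, S100a9 at 160.6, Csf3r at 41.8 and Mmp9 at 27.5. In male active pain it held for 8 genes in replicate 2, with Cxcl2 at 13.5, Cxcl3 at 6.42, Cxcl5 at 11.95, Cxcr2 at 7.45, Trem1 at 3.71, S100a8 at 17.5, S100a9 at 31.7 and Csf3r at 18.7.

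In female sedentary pain it held for 8 genes in replicate 2, with Cxcl2 at 26.6, Cxcl3 at 19.0, Cxcl5 at 15.4, Cxcr2 at 15.8, Trem1 at 15.4, S100a8 at 43.5, S100a9 at 140.5 and Mmp9 at 25.1. In female active pain it held for 6 genes in replicate 3, with Cxcl1 at 1.33, Cxcl2 at 19.4, Cxcl3 at 12.2, Cxcl5 at 5.87, Trem1 at 5.91 and Csf3r at 13.6.

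Among controls it held for Cxcl2 in female replicate 4 at 0.0303, which is 1 count, and for S100a8 at 1.48 and S100a9 at 2.25 in male replicate 3.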

How the results depend on the processing

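Over the fitted changes of single genes, 728 alternatives were computed, of which 663 kept the direction and the side of the threshold, 22 lost a call, 16 gained one and 27 turned the direction. In female sedentary pain against control Csf3r was called in 23 of 23 alternatives, Cxcl1 in 21 of 22, S100a9 in 20 of 23, Trem1 in 11 of 22 and Mmp9 in 11 of 23. The 9 calls there became 5 with no filter on low counts, 5 with a mean of at least 50 counts (6 genes tested), 5 with all 24 libraries in 1 fit, 1 with replicates 1 and 2 alone and 2 with replicates 3 and 4 alone, and ranged from 4 (without sedentary pain replicate 2) to 10 when a library was left out. It was 5 without control replicate 1 or 2. The calls over all genes moved as well. From 4867 they went to between 2486 and 6674 when a library was left out and to between 238 and 5773 under the other alternatives.

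DESeq2 called 5 of the 10 genes in female active pain against control, 2 in active against sedentary pain, 1 in each of the sex differences of sedentary and of active pain against control, and 2 in male against female control, where edgeR called 0. Over all genes DESeq2 called 0.862%, 20.8%, 0.0994%, 0.0199% and 4.77% in these comparisons, in the same order. In female active against sedentary pain 1 gene, Csf3r, was called with RLE scaling, without the robust step, with a mean of at least 50 counts, with a replicate block and with a term that sets replicates 1 and 2 against 3 and 4, whose library numbers in the submission form separate ranges, and 0 to 4 genes when a library was left out (4 without active pain replicate 3, 2 without sedentary pain replicate 1). The sex difference of active against sedentary pain gave 0 to 3 calls when a library was left out, with 3 without male sedentary pain replicate 1. The male comparisons gave 0 calls under every alternative run.

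Directions turned on the log2 scale with replicates 3 and 4 alone, which leave out the high library except in female active pain. Male sedentary pain against control gave S100a8 −2.30, S100a9 −1.59 and Mmp9 −0.19. Female active against sedentary pain gave Cxcl2 1.96, Cxcl3 4.08, Cxcl5 0.62, Cxcr2 1.08, Trem1 2.01, S100a8 1.68 and S100a9 2.28. Male active against sedentary pain gave S100a8 2.70, S100a9 1.93 and Mmp9 0.31. With a replicate block, male active against sedentary pain gave S100a8 0.84 and S100a9 0.43. Leaving out a library gave ranges of −1.12 to 6.94 for S100a8, −0.19 to 7.46 for S100a9 and −0.0088 to 1.62 for Mmp9 in male sedentary pain against control. In female active against sedentary pain they were −6.23 to 1.40 for Cxcl2, −6.66 to 2.61 for Cxcl3, −4.51 to 1.25 for Trem1, −1.49 to 1.37 for S100a8 and −2.07 to 1.79 for S100a9. In male active against sedentary pain they were −3.67 to 4.61 for S100a8, −4.34 to 3.85 for S100a9, −2.82 to 2.22 for Csf3r and −1.05 to 0.77 for Mmp9.

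Over all genes, the 4867 calls of female sedentary pain against control ran from 2486 to 6674 when a library was left out, and the 1730 calls of female active against sedentary pain from 0 to 4316. The correlation of the deviations of same-numbered replicates ran from −0.304 to 0.395 over 12 pairs in females and from −0.652 to 0.572 in males. In none of the 6 pairs of groups was every value over 0.1, the level taken for pairing. Female active pain and control came closest, with 0.056 to 0.395 and 5 of 8 libraries closest to their own number, so a pairing there was not shown and cannot be dismissed. The replicate block called 8 of the 10 genes in female sedentary pain against control, without Mmp9 (adjusted p = 0.0929, edgeR), and Csf3r in female active against sedentary pain (0.0146). In most male libraries each ligand held 3 counts or fewer, and at this depth a count of 0 allows levels of up to 0.0908 to 0.169 CPM.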

Other observations

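Cxcl15, a CXC chemokine gene known mainly from lung, had 36 and 153 counts in female control replicates 3 and 4 and no count in the other 22 libraries. It was singled out after its values were seen. The same controls held the highest summed adipocyte markers of the 24 libraries, at 810.6 and 419.5 CPM, where the other libraries ranged from 13.2 to 177.2 CPM. Ltf, the lactoferrin gene of neutrophil secondary granules and of glandular epithelium, had 91 and 133 counts in these controls, against 6 and 0 in female control replicates 1 and 2. Neither library was high for the 4 ligands, with 4 and 2 counts of them in sum.

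Lcn2, a gene of neutrophil granules, adipocytes and many epithelia, stood at 4.50 and 3.33 CPM in female control replicates 3 and 4 and at 0.831 and 0.809 CPM in replicates 1 and 2. In female sedentary pain it stood at 2.75, 18.6, 18.7 and 34.2 CPM, and in male sedentary pain at 40.8, 2.15, 3.18 and 1.60 CPM. Ppbp, a platelet chemokine gene whose product binds CXCR2, was chosen after its values were seen. It stood at 2.52, 6.25, 0.0919 and 0.168 CPM in female sedentary pain and at 8.28, 0.102, 0.174 and 0.297 CPM in male sedentary pain, so that it was low in the female libraries with high macrophage markers.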
